A study of Mus musculus with 16 samples.

Results

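The binding of RUNX1, MyoD, c-Jun and MyoG was examined at the genes of the contractile apparatus Myh3, Myh1, Myh4, Myh8, Acta1, Ckm, Des and Ttn. The members were the deposited peaks that overlapped 5 fixed windows of the mouse build mm9: the myosin heavy chain (Myh) cluster on chromosome 11 from 66840000 to 67230000, Acta1 on chromosome 8 from 126380000 to 126460000, Ckm on chromosome 7 from 19960000 to 20040000, Des on chromosome 1 from 75310000 to 75400000, and Ttn on chromosome 2 from 76500000 to 76870000. They were 217 of 193322 peaks: 47 RUNX1, 48 MyoD, 42 c-Jun and 80 MyoG peaks. Overlapping peaks of the 4 lists were merged into regions, of which 105 out of 99548 on chromosomes 1 to 19 and X lay in the windows. The windows were set by gene position and cover 1010 kb, or 0.0383% of these chromosomes.

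The data are chromatin immunoprecipitation with sequencing (ChIP-seq) of primary satellite cell cultures from the gastrocnemius of wild-type C57BL/6 mice, 2 to 3 weeks old. Myoblasts that were still dividing, at 3 days in culture, gave the RUNX1, MyoD and c-Jun samples (2 ChIP samples each), with 2 non-immune serum samples as the control of RUNX1 and 2 IgG samples each as controls of MyoD and c-Jun. MyoG was precipitated at 4 days in culture, after 24 hours in differentiation medium with horse serum and insulin (2 ChIP and 2 IgG samples), and these cells are called early myotubes here. The 2 samples of a factor are biological replicates per the labels, but each factor has 1 peak list that does not separate them, so no spread between cultures can be given, and read depth is unknown. Factor and stage differ together, because MyoG was mapped in early myotubes and the other 3 factors in myoblasts, so the 2 cannot be told apart. The control samples have no values in the lists, and no expression was measured here by which the cell type could be checked. The list taken as MyoG carries an abbreviation and was assigned by elimination.

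Each peak has a score written by the authors' peak caller, from 50.01 to 3233 in every list, with many peaks at exactly 3100. In the MyoG list, 676 peaks have 3100 and 98 score higher. What 3100 stands for is not stated, so ranks at and above it are uncertain. Scores are compared only within a list, as the percentage of that list's peaks with a lower score (the rank below). The annotation at hand is of another build, GRCm38.p6, so no peak was assigned to a promoter, exon or intron, and results are given by window and mm9 coordinate. The windows are wider than most of the genes: the gene covers a length equal to 3.77% of the window for Acta1, 13.1% for Ckm, 9.21% for Des and 75.3% for Ttn in that annotation. Neighbouring genes such as Speg next to Des, Nup133 next to Acta1 and Mark4 next to Ckm may share the windows. Plekha3 and Ccdc141 lie on either side of Ttn, so peaks near the ends of its window may lie outside Ttn.

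Sarcomeres, the contractile units of striated muscle, are built when myoblasts leave the cell cycle and fuse. Myosin heavy chains are the motors of the thick filament, skeletal alpha-actin (Acta1) forms the thin filament, titin (Ttn) is the giant elastic scaffold that spans from the Z-disc to the M-line, desmin (Des) is the intermediate filament that ties Z-discs together, and muscle creatine kinase (Ckm) regenerates ATP beside the filaments. MyoD and MyoG are helix-loop-helix factors that bind E-boxes (CANNTG) and activate such genes during differentiation, RUNX1 binds DNA through its runt domain, and c-Jun is a subunit of AP-1.

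The bases just before the start sites of these genes are shown for the E-box, the motif class that MyoD and MyoG bind. In RefSeq promoters of build GRCm38.p6, all 8 genes matched, and the 250 bases upstream of the start were searched on both strands. The E-box CANNTG was present in 7 of 8 (all but Myh1), against 66.2% of 32536 promoters, and its form CAGCTG, which is contained in CANNTG, in 4 of 8, against 13.1%. A RUNX motif (TGTGGT or TGCGGT) was found in 1 of 8, that of Myh3, against 18.5%. The AP-1-like form TGANTCA was found in 1 of 8, as TGATTCA in Myh1, against 6.73%. The MEF2 forms CTAAAAATA or CTATTTATA were found in 0 of 8, against 0.851%. Only these letters were searched, so other forms of these sites were not counted. The 4 promoters with CAGCTG follow, 5′ to 3′ on the gene's strand, with capitals for every CANNTG. Acta1 lies on the minus strand of chromosome 8, and Ckm (chromosome 7), Des (chromosome 1) and Myh4 (chromosome 11) lie on the plus strand. Whether a peak covers them is not known, since the peaks are on mm9.
Acta1: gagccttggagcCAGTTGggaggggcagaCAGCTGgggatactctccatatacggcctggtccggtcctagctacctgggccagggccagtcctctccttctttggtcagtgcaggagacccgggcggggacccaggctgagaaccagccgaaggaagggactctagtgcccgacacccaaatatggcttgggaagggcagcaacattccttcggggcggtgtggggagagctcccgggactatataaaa
Ckm: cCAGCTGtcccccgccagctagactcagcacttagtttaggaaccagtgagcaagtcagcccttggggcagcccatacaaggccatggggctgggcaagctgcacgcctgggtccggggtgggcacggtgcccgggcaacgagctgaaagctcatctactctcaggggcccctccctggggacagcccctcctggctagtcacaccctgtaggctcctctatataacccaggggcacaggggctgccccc
Des: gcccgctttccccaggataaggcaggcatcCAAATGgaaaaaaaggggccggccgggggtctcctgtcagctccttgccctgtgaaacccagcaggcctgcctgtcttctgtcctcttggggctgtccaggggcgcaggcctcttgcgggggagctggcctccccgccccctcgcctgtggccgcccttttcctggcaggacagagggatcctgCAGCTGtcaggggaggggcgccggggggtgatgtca
Myh4: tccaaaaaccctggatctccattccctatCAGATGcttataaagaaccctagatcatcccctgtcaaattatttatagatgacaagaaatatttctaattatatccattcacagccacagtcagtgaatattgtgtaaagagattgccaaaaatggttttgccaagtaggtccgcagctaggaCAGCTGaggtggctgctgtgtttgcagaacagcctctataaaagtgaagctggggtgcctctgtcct

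The promoters of Myh1, Myh4 and Myh8, the genes of adult fast IIx and IIb and of perinatal myosin, share a run of 15 bases. This run and the second run below are the longest common to the promoters named, found by a search and not fixed beforehand. Their presence in those promoters therefore follows from the search. The run of 15 bases was found on either strand in 3 of 32536 promoters, namely these 3. Their stretches are shown with the shared run in capitals, so that the sequence common to the genes of 1 cluster can be seen next to the peaks of that cluster. The run begins 216 bases before the start in Myh1, 187 in Myh4 and 104 in Myh8, and it is not in the 250 bases of Myh3, the embryonic myosin gene. The run contains TTATTTATA, which differs from the searched MEF2 form CTATTTATA only in its first base. A second run, TTCTAATTATATCC, was found in the promoters of Myh1, Myh4, Myh8 and Myh2, the adult fast IIa gene, and in 0 others.
Myh1: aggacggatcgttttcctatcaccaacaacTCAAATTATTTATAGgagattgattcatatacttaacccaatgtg
Myh4: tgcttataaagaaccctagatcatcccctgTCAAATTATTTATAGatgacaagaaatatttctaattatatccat
Myh8: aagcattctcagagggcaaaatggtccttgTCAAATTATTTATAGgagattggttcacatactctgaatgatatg

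Peaks were denser in the windows than over the whole lists, most of all at Acta1 and Des. Over the 5 windows, RUNX1 had 4.65 peaks per 100 kb against 1.62 in its whole list, MyoD 4.75 against 1.74, c-Jun 4.16 against 1.6 and MyoG 7.92 against 2.37. The folds over the list density were 2.87, 2.73, 2.6 and 3.34. At Acta1, MyoG reached 17.5 peaks per 100 kb, 7.39 times its list density, and 0.753% of 32941 stretches of 80 kb along all chromosomes held as many MyoG peaks. At Des, MyoG had 15.6 peaks per 100 kb (6.57 times), and 1.23% of 29282 stretches of 90 kb held as many. The other windows lay nearer to the rest of the genome: as many MyoG peaks were found in 6.66% of stretches as long as the Myh window, 14.7% for Ckm and 19.6% for Ttn. No chance test was made of these densities, and stretches include gene-poor sequence.

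**Figure D1:**
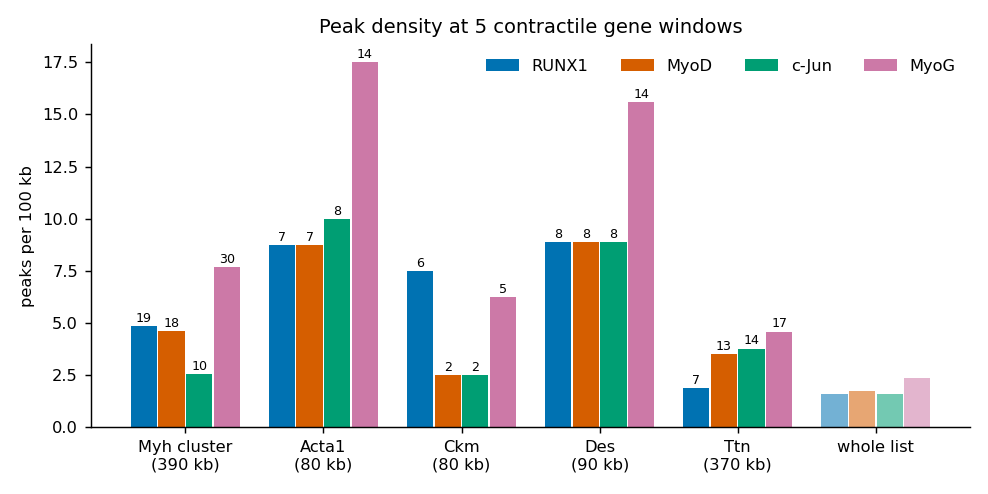
Peaks per 100 kb (y axis) of each factor in the 5 windows, with the number of peaks above each bar and, at the right in paler colour, the density of the whole list on chromosomes 1 to 19 and X. MyoG was densest at Acta1 (17.5) and Des (15.6), and RUNX1 at Ttn (1.89) lay closest to its list density (1.62).

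The flanks of equal length on each side held fewer peaks of every list than the window at the Myh cluster and Acta1, but most held more at Ckm. At the Myh cluster, the 30 MyoG peaks compared with 4 in the flank of lower coordinates and 10 in the flank of higher coordinates, and the 18 MyoD peaks with 4 and 4. At Acta1, the 14 MyoG peaks compared with 4 and 4. At Ckm, RUNX1 had 6 peaks in the window and 13 and 7 in the flanks, c-Jun had 2 and then 12 and 4, MyoD 2 and then 3 and 5, and MyoG 5 and then 7 and 4. At Des, the 14 MyoG peaks compared with 6 and 14. Beyond Ttn at higher coordinates, the flank held 31 MyoG, 23 MyoD, 21 c-Jun and 17 RUNX1 peaks, more than the window itself in each list (17, 13, 14 and 7).

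The Myh cluster held 77 peaks in 35 regions: 19 RUNX1, 18 MyoD, 10 c-Jun and 30 MyoG peaks. In RefSeq order the cluster runs Myh3, Myh2, Myh1, Myh4, Myh8 and Myh13, all of them genes of sarcomeric myosin heavy chains. Binding was concentrated towards the low-coordinate side. The stretch from 66840000 to 66970000 held 13 of the 19 RUNX1, 12 of the 18 MyoD, 6 of the 10 c-Jun and 20 of the 30 MyoG peaks, whereas the stretch from 67100000 to 67230000 held 2, 2, 1 and 2. The longest gap between neighbouring regions ran for 43 kb, from 67128515 to 67171477. A longer stretch without a peak of any list followed the last region, which ended at 67172372, up to the window end at 67230000.

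Of the 35 regions in the Myh window, 5 held all 4 lists. The region from 66889803 to 66892091 ranked in the top 10% of every list, with scores of 2011 for RUNX1, 1227 for MyoD, 1445 for c-Jun and 1801 for MyoG, and it was the only region of the 105 in all 5 windows that did so. Its MyoD and MyoG centres lay 49 bp apart and its RUNX1 centre 323.5 bp from that of MyoD. It holds the highest RUNX1 peak of the window.

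Directly after it lay a pair of regions with RUNX1, MyoD and MyoG but no c-Jun peak. The region from 66892626 to 66893922 had scores of 250 for RUNX1, 416 for MyoD and 1465 for MyoG, and the region from 66894363 to 66895340 had 312, 274 and 1310. MyoG ranked above 93% and 91.5% of its list at these sites, and MyoD above 72.5% and 62.6%. A region from 66957769 to 66958819 also lacked c-Jun and had the reverse order of ranks, with 1176 for RUNX1, 1059 for MyoD and 390 for MyoG.

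The highest MyoG score of all 5 windows, 3145, lay in the region from 66917759 to 66919978, where MyoD scored 872 and c-Jun 1537, the highest c-Jun peak of the Myh window. That region holds 2 RUNX1 and 2 MyoG peaks, and the MyoG peak of 3145 met the RUNX1 peak of 296 with centres 12 bp apart, while the RUNX1 peak of 350 met a MyoG peak of 99.5. The adjoining region from 66920105 to 66921636 had scores of 446 for RUNX1, 759 for MyoD, 349 for c-Jun and 1505 for MyoG.

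The remaining 4-list regions lay further along the cluster. From 67012396 to 67013859, MyoD had its highest score of the window, 2273, with 995 for c-Jun, 1077 for MyoG and a RUNX1 peak of only 74.4, which outranked 18.8% of its list. From 67126914 to 67128514, MyoG scored 2196 and MyoD 1358, with 405 for RUNX1 and 113 for c-Jun. Strong MyoD and MyoG binding in the cluster was thus found both with a high and with a low RUNX1 score.

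MyoG alone was found in 8 regions of the Myh window, with scores from 53.4 to 173 and the highest from 67091682 to 67092238. MyoD without MyoG was found in 1 region, from 67102226 to 67102960, with a score of 59.7. RUNX1 alone was found in 3 regions and c-Jun alone in 2, with scores from 51.3 to 198 for these RUNX1 peaks and of 65 and 124 for these c-Jun peaks.

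The Ttn window held 51 peaks in 30 regions: 7 RUNX1, 13 MyoD, 14 c-Jun and 17 MyoG peaks. It was the window with the lowest MyoG density, and the median MyoG score there was 78.7 against 189 for the whole list. Its c-Jun peaks outnumbered its RUNX1 peaks, and 7 regions held c-Jun alone, with scores from 52.6 to 130. High scores were limited to a few places.

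The stretch from 76746667 to 76870000 held 7 of the 13 MyoD and 7 of the 17 MyoG peaks, with median scores of 1080 and 609, whereas the stretch from 76623333 to 76746667 held 3 MyoD peaks with a median of 144 and 6 MyoG peaks with a median of 70.1, and 0 RUNX1 peaks. Ttn is transcribed towards lower coordinates in RefSeq, and its start was not placed on mm9. In the high-coordinate stretch, the region from 76819228 to 76821913 had scores of 1584 for RUNX1, the highest of the window, 1180 for MyoD, 1524 for c-Jun and 609 for MyoG. The region next to it, from 76822056 to 76823344, had MyoD (543), c-Jun (909) and MyoG (651) and no RUNX1 peak.

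The region from 76857797 to 76859535 held the highest MyoD and c-Jun peaks of the Ttn window, at 1539 and 2447, with MyoG at 840 and RUNX1 at 155. Beside it, from 76855962 to 76857148, MyoD scored 1149, MyoG 935 and c-Jun 191. At the opposite end of the window, from 76524644 to 76525886, the highest MyoG peak of Ttn, 995, lay with MyoD at 1366, c-Jun at 176 and RUNX1 at 86.5. Of the regions named at Ttn, those from 76524644, 76819228 and 76857797 held all 4 lists, and in them MyoD ranked above 91.9%, 90.1% and 93.2% of its list and MyoG above 87.5%, 78.4% and 84.5%.

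Weak peaks of a single list made up 19 of the 30 regions at Ttn, or 63.3%. The share of regions with 1 list only was 48.3% over all chromosomes and 72.7% at Ckm. MyoG alone was found in 6 regions, with scores from 52.6 to 71.6, the highest from 76645220 to 76645791. MyoD without MyoG was found in 4 regions, with a highest score of 155 from 76732363 to 76733157.

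**Figure D2:**
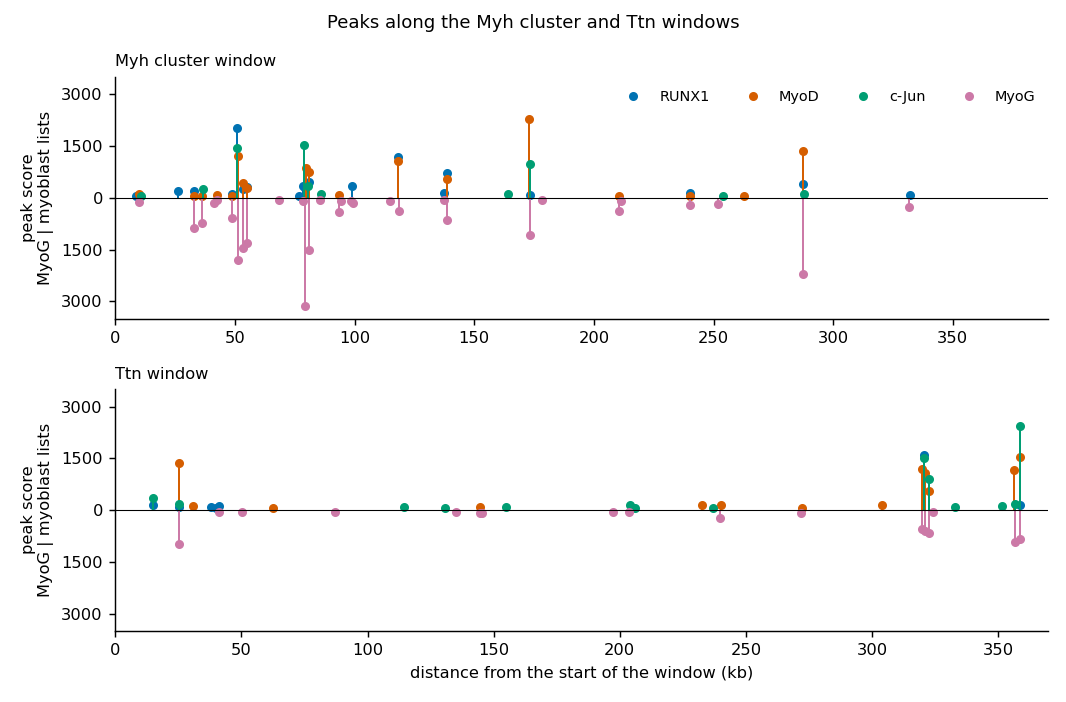
Score of each peak (y axis; RUNX1, MyoD and c-Jun upwards, MyoG downwards, both from 0) against the distance of its centre from the start of the Myh cluster and Ttn windows in kb (x axis). Tall lines of several colours stand together at several places in the Myh cluster and near both ends of the Ttn window, and the middle of the Ttn window holds only low scores.

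Acta1 held 36 peaks in 14 regions, and 9 of these regions, from 126390525 to 126421027, followed one another with gaps of at most 5 kb, over 30.5 kb. The window had 7 RUNX1, 7 MyoD, 8 c-Jun and 14 MyoG peaks. Every one of the 7 MyoD peaks met both a MyoG and a RUNX1 peak. Centres lay within 150 bp in 6 of the 7 overlaps with MyoG, but in only 2 of the 7 with RUNX1. MyoD also ranked higher here than in its list, with a median score of 504 against 176.

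Acta1 held 2 of the 3 MyoG peaks of the 5 windows at or above 3100, the third being the 3145 of the Myh cluster. The first lay from 126406211 to 126407756, with a MyoD peak of 1885 whose centre was 23 bp away, a RUNX1 peak of 494 and a c-Jun peak of 816. The same merged region, which ends at 126409522, also held the highest c-Jun peak of the window, 2264, over a MyoD peak of 269 and a MyoG peak of 714. Here c-Jun and MyoG reached their highest scores at neighbouring places and not at the same one.

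The second lay from 126418417 to 126420536, with MyoD also at 3100 from 126418479 to 126420558, the only MyoD peak of the 5 windows at that value, and c-Jun at 1448. A RUNX1 peak of 455 covered this site, but it is 6604 bp wide, from 126414424 to 126421027, and its centre lay 1793 bp from that of MyoD. It also spans a weaker MyoD peak of 171 and MyoG peak of 233. Co-binding of RUNX1 at this site therefore rests on 1 wide peak.

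A further strong site lay from 126431101 to 126432267, with MyoG at 2944, MyoD at 1185 and the highest RUNX1 peak of Acta1 at 647. The MyoD and MyoG centres lay 1.5 bp apart and the RUNX1 and MyoD centres 62.5 bp apart, and no c-Jun peak was present. The third region with all 4 lists, from 126395643 to 126396561, was weak in the myoblast lists, with 158 for RUNX1, 188 for MyoD and 67.1 for c-Jun, and had a MyoG score of 714. Of the 4 regions with MyoG alone, the highest lay from 126438407 to 126439086 and scored 391, and 0 regions had MyoD without MyoG.

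Des held 38 peaks in 15 regions: 8 RUNX1, 8 MyoD, 8 c-Jun and 14 MyoG peaks. Of these regions, 5 held all 4 lists, the same number as in the Myh window, which is 390 kb long against 90 kb. The strongest, from 75355693 to 75357699, had the highest MyoG and RUNX1 scores of the window, 2727 and 1005, with MyoD at 1506 and c-Jun at 641. The centres of MyoD and MyoG lay 3.5 bp apart there.

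The region from 75340663 to 75342728 also joined RUNX1 (455), MyoD (933) and MyoG (391), without a c-Jun peak. Further sites of Des differed more from the strongest region. The highest MyoD peak, 1709, lay from 75376206 to 75377955 with MyoG at 541, RUNX1 at 66.8 and c-Jun at 145. The highest c-Jun peak, 2241, lay from 75343360 to 75344728, with 0 RUNX1 and 0 MyoG peaks, and it met a MyoD peak of 68 only by its edge, with centres 968.5 bp apart. In the 4-list regions from 75313326 to 75315214 and from 75388117 to 75390381, 0 bases were shared by a peak of each list, so these are chains of neighbouring peaks. Their scores were 841 for RUNX1, 69.5 for MyoD, 342 for c-Jun and 81.2 for MyoG in the first, and 52.9, 137, 590 and 389 in the second.

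The last 4-list region of Des, from 75394688 to 75398036, held 3 MyoG peaks of up to 598, with 559 for RUNX1, 709 for c-Jun and 65.1 for MyoD. MyoD was weak over much of the window, with a median score of 104 against 176 in its list, while the medians of c-Jun (466 against 171) and MyoG (386 against 189) were higher than in theirs. Des also held the highest peak of MyoG alone in any window, 951 from 75367751 to 75368331, which outranked 86.8% of the MyoG list. That peak is alone only by the overlap rule, because a region with RUNX1, c-Jun and MyoG peaks ended just before it, at 75367683. The highest MyoD peak without MyoG scored 70.5, from 75391320 to 75391933.

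Ckm held 15 peaks in 11 regions, the fewest of the 5 windows, and 0 regions with all 4 lists. The main site lay from 19995812 to 19997819, where MyoG scored 2125, above 96.6% of its list, MyoD 491 and RUNX1 96. Its MyoD peak was the higher of 2 in the window, and the other, 157, lay from 19973881 to 19974681 with MyoG at 653. Both ranked lower among MyoD peaks (75.9% and 46.3%) than their partners among MyoG peaks (96.6% and 79.8%).

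RUNX1 and c-Jun binding at Ckm was weak. The 6 RUNX1 peaks scored from 54.6 to 115, all below the list median of 177, and the highest lay from 19966909 to 19967676, alone. The c-Jun peaks scored 90 and 131, the higher from 19990543 to 19991588, and both stood alone, so c-Jun met 0 of the other peaks in the window. MyoG alone was found in 2 regions, with scores of 85.5 and 142, the latter from 19994920 to 19995515.

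**Figure D3:**
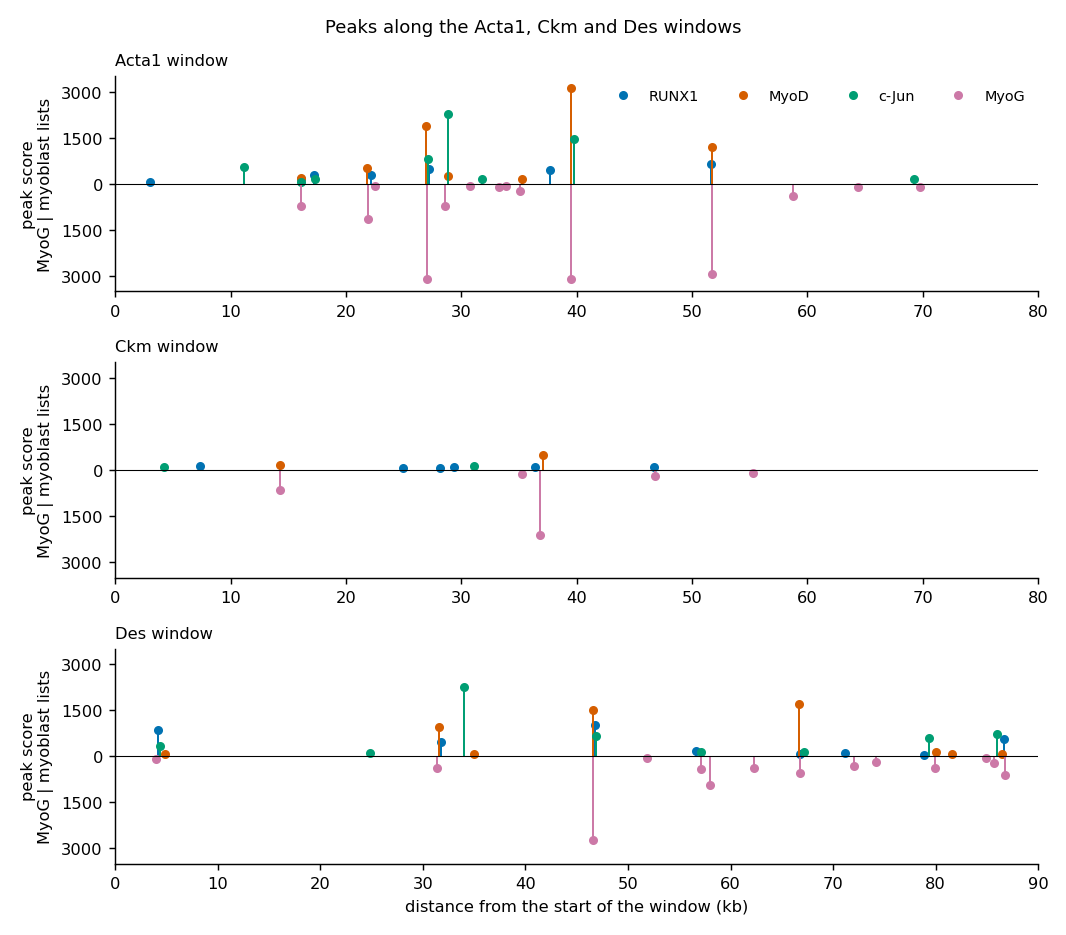
Score of each peak (y axis; RUNX1, MyoD and c-Jun upwards, MyoG downwards, both from 0) against the distance of its centre from the start of the Acta1, Ckm and Des windows in kb (x axis). Acta1 has 3 MyoG peaks near or at 3100 opposite MyoD peaks, Ckm has 1 high MyoG peak (2125) opposite a MyoD peak of 491 and a RUNX1 peak of 96, and at Des the highest c-Jun peak (2241) stands apart from the highest MyoG peak (2727).

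Over the 5 windows together, most MyoD peaks were also MyoG sites. A MyoG peak overlapped 40 of 48 MyoD peaks by at least 1 bp, or 83.3% (95% Wilson interval 70.4 to 91.3), against 77.1% of the whole MyoD list. Intervals here cover counting error only, and peaks are not replicates of a culture. The share was 17 of 18 at the Myh cluster, 7 of 7 at Acta1, 2 of 2 at Ckm, 5 of 8 at Des and 9 of 13 at Ttn. Of the 80 MyoG peaks, 40 met MyoD, or 50% (39.3 to 60.7), against 57.7% of the MyoG list. Both list values lie inside these intervals.

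RUNX1 met 29 of 48 MyoD peaks, 60.4% (46.3 to 73), against 42.5% of the MyoD list. It met 12 of 18 at the Myh cluster, 7 of 7 at Acta1, 1 of 2 at Ckm, 5 of 8 at Des and 4 of 13 at Ttn, so the windows differed among themselves. The gap to the list nearly closed when centres had to lie within 150 bp, with 27.1% in the windows and 23.2% in the list. It widened in the stronger 50% of each list, to 68% in the windows and 35.3% in the list. RUNX1 peaks were wide at Acta1 (median 1319 bp) and Des (1772.5 bp) against 944 bp in the list, and the part of width in these overlaps was not tested. Of the RUNX1 peaks, 26 of 47 met MyoD (55.3%, against 44.3% of the list), 20 of 47 met c-Jun (42.6%, against 46.8%) and 34 of 47 met MyoG (72.3%, with an interval of 58.2 to 83.1, against 57.9%). The MyoG share of RUNX1 peaks was 16 of 19 at the Myh cluster and 2 of 6 at Ckm. With centres within 150 bp, the RUNX1 peaks with MyoG fell to 38.3%, against 36% of the list, and in the stronger 50% of each list they were 78.3%, against 49.1%.

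c-Jun met 23 of 48 MyoD peaks, 47.9% (34.5 to 61.7), against 41.9% of the MyoD list. MyoG met 26 of 42 c-Jun peaks, 61.9% (46.8 to 75), against 45.1% of the c-Jun list. The MyoG share of c-Jun peaks was 8 of 10 at the Myh cluster, 6 of 8 at Acta1, 6 of 8 at Des, 6 of 14 at Ttn and 0 of 2 at Ckm. With centres within 150 bp it was 26.2%, against 26.9% of the list, and in the stronger 50% of each list it was 80%, against 37.2%. The median distance between overlapping c-Jun and MyoG centres was 316 bp in the windows and 127 bp over all chromosomes.

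MyoD and MyoG, in contrast, were centred on the same places. Their overlapping peaks had a median centre distance of 53.5 bp in the windows and 55.5 bp over all chromosomes, and 33 of 41 overlaps lay within 150 bp. RUNX1 and MyoD centres lay a median of 197.5 bp apart in the windows and 132 bp over all chromosomes.

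All 4 lists were present in 16 of the 105 regions, against 10.7% of all regions: 5 at the Myh cluster, 3 at Acta1, 0 at Ckm, 5 at Des and 3 at Ttn. In 14 of the 16, a peak of each list shared a common stretch, with a median of 751.5 bp over the 16. The median MyoD score in these 16 regions was 1290, against 528 in all regions with the 4 lists, and the median MyoG score was 1040 against 699. For RUNX1 it was 426 against 342 and for c-Jun 675 against 321. Regions with 2 or more lists in their top 10% numbered 10 of 105, against 4.11% of all regions, and 4 of them were in the Myh window, 3 at Acta1, 1 at Des, 2 at Ttn and 0 at Ckm.

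By stage, 49 of the 105 regions held MyoG together with at least 1 myoblast factor (46.7%, against 42.8% of all regions). A further 32 held RUNX1, MyoD or c-Jun without MyoG (30.5%, against 40.5%), and 24 held MyoG alone (22.9%, against 16.7%). Myoblast-only regions made up 6 of 35 at the Myh cluster, 3 of 14 at Acta1 and 3 of 15 at Des, but 6 of 11 at Ckm and 14 of 30 at Ttn. In the myoblast-only regions, 13 held c-Jun alone, 10 RUNX1 alone and 6 MyoD alone, and 0 held RUNX1 with MyoD. As shares of the 105 regions, the single-list counts were 12.4%, 9.52% and 5.71%. Over all regions the shares were 14.3%, 10.8% and 6.52%, so each count lay near its background. Over all chromosomes, RUNX1 with MyoD but without MyoG was also rare, at 0.49% of regions without c-Jun and 0.942% with it.

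MyoG regions with a myoblast factor scored higher than MyoG alone. The median MyoG score was 583 in the 49 shared regions, from 50.7 to 3145, and 86.5 in the 24 regions with MyoG alone, from 52.5 to 951. The range of MyoG alone lies wholly inside the range of the shared regions. Over all chromosomes the medians were 299 and 95.8, so the order is that of the whole data. Sites of a single myoblast factor were weak as well, with a median of 72.3 for RUNX1 alone, 94.3 for MyoD alone and 90 for c-Jun alone. Over all chromosomes these medians were 106, 85.4 and 116, so such sites are weak in the whole data too. The highest score of such a site in the windows was 553, for c-Jun at Acta1 from 126390525 to 126391745.

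**Figure D4:**
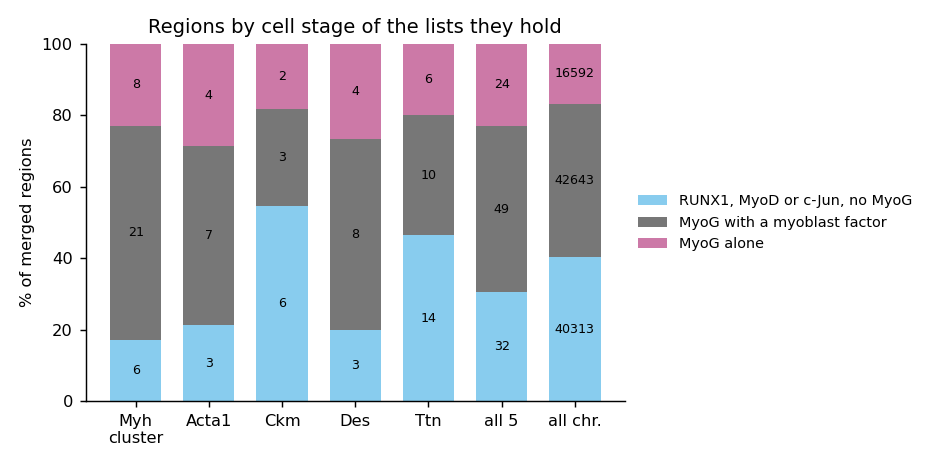
Share of merged regions (y axis, %) that hold myoblast factors without MyoG, MyoG with a myoblast factor, or MyoG alone, in each window, in all 5 windows and over all chromosomes, with the number of regions in each part of a bar. Regions of both stages make up 21 of 35 at the Myh cluster and 3 of 11 at Ckm.

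At overlapping pairs of MyoD and MyoG peaks, MyoG usually held the higher rank in its list, and the windows differed in this. MyoG ranked higher in 29 of 41 pairs, against 62.2% of 36433 pairs over all chromosomes. It did so in 14 of 17 pairs at the Myh cluster, 7 of 7 at Acta1, 2 of 2 at Ckm and 3 of 5 at Des, but in 3 of 10 at Ttn. The Acta1 count includes the pair with both scores at exactly 3100, whose ranks differ by 0.661 points and whose order is therefore uncertain. The median difference in rank, MyoG minus MyoD, was 13.7 percentage points at the Myh cluster, 8.34 at Acta1 and -5.06 at Ttn, against 6.24 over all pairs. At Ttn, the MyoD peak of 1180 and the MyoG peak of 609 in the region from 76819228 each entered 2 pairs, so the pairs are not independent. The difference between windows was not tested.

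Some of these pairs joined a weak MyoD peak of myoblasts to a strong MyoG peak of early myotubes. MyoD was below its list median and MyoG at or above its own in 11 of 41 pairs, against 21.9% of all pairs, and 6 of the 11 lay in the Myh cluster. From 66875898 to 66876988, for example, MyoD scored 50.1, near the lowest score of the list, and MyoG 732, and from 66872313 to 66873610 MyoD scored 55.9 and MyoG 876. The opposite combination, MyoD at or above and MyoG below the list median, occurred in 0 of 41 pairs, against 11.3% of all pairs. Across the 41 pairs, the Spearman correlation of the ranks was 0.585, against 0.502 over all pairs. These are peaks of the same 2 lists, and neighbouring pairs share a locus.

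**Figure D5:**
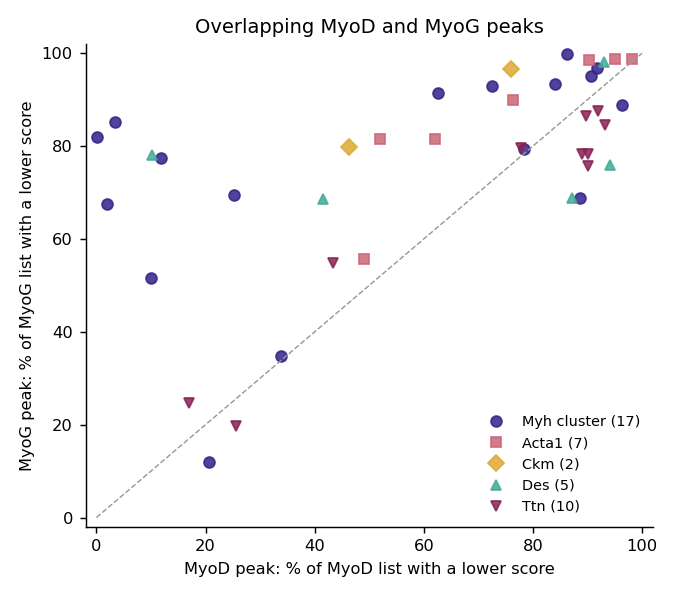
Rank of the MyoD peak (x axis, % of the MyoD list with a lower score) and of the MyoG peak (y axis, % of the MyoG list with a lower score) for the 41 overlapping pairs, with the number of pairs per window in brackets and a dashed line of equal rank. Pairs of the Myh cluster, Acta1 and Ckm lie mostly above the line (23 of 26) and those of Ttn mostly below it (7 of 10).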

How the data were processed

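The 4 deposited peak lists each came with position, name and score of a peak. The score is the value that the authors' peak caller wrote in a deposited file, and the peak names there begin with MACS. The submitters' processing notes name the build mm9, Bowtie, and CASAVA 1.7.0 and 1.8.2. For the caller's version and settings, the control used and the joining of replicates, no statement was found in the labels or files. Starts were written 1-based. Chromosomes 1 to 19 and X were used. A peak belonged to a window, and peaks were shared, from 1 bp of overlap; regions are merged overlapping peaks. Ranks are the percentage of a list with a lower score. Overlap and merging were tested on simulated peaks with known answers. No test was run, because the lists do not separate replicates and so give no spread between samples.

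Named in each window were the highest peak of each list, every region with all 4 lists, and the highest peak of MyoG alone and of MyoD without MyoG; other peaks named were chosen after their values were seen. Members and lists were chosen with earlier results of these data known. A planned list of other contractile genes was not analysed here, since no mm9 genes were at hand. Tables were computed with pandas 2.3.3, numpy 2.4.6 and scipy 1.17.1 under Python 3.11.15, and plots drawn with matplotlib 3.10.9.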

Additional observations from a re-analysis of the deposited data

How the results depend on the processing

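Of 56 alternatives to 14 results, 34 left a count within 1.5 times or a share inside its 95% Wilson interval, and 22 did not. The stronger 50% of each list, which holds fewer peaks by construction, left 23 RUNX1, 25 MyoD, 20 c-Jun and 45 MyoG peaks in the windows. It also left 48 regions, among them 7 with all 4 factors, 13 with MyoG alone, 23 with MyoD and MyoG and 7 of the myoblast factors without MyoG. MyoG then met 100% of the MyoD peaks (list: 74.3%) and 80% of the c-Jun peaks (list: 37.2%). A score of at least 100 left 53 MyoG peaks. Windows widened by 50 kb held 73 RUNX1 and 65 c-Jun peaks, and 50 of their 150 regions held myoblast factors without MyoG.

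Centres within 150 bp lowered the share of MyoD peaks with MyoG to 68.8% (list: 67.6%), with RUNX1 to 27.1% (23.2%) and with c-Jun to 18.8% (24.3%). The share with MyoG fell to 38.3% of RUNX1 peaks (36%) and 26.2% of c-Jun peaks (26.9%). With 200 bp around each centre, 7 of 136 regions held all 4 factors and 56 held myoblast factors without MyoG. Merging peaks within 500 bp left 15 of 87 regions with MyoG alone. Region shares over all chromosomes were not computed at these alternative settings, so these region counts are not compared with a background. No paired analysis was possible because replicates are not separated in the lists, so none could be left out in turn either. Depth is unknown, so a missing peak does not show that a factor was absent.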
